A study of Mus musculus with 18 samples.

Results

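Wnt ligands, their receptors and their secreted inhibitors were followed in mouse small cell lung cancer (SCLC), a neuroendocrine lung tumor, by a list of 50 genes of the pathway. The list held 18 Wnt ligands, 10 Frizzled receptors, 2 LRP co-receptors, 9 secreted inhibitors, 3 R-spondins, 3 R-spondin receptors, 2 Ror receptors and 3 genes of the nuclear response. All 50 were found among the 46078 genes of the RNA-seq table, and 39 of them had enough counts to be among the 15514 genes tested. Of the 111664 peaks of the ATAC-seq table, 56 had their middle within 1000 bp of a transcript start of a listed gene. These start-site peaks belonged to 46 of the 50 genes, and Wnt3a, Wnt8b, Sfrp5 and Dkk1 had none.

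Wnt proteins are secreted ligands that bind Frizzled receptors together with the co-receptors LRP5 and LRP6. In the canonical branch this stops the breakdown of beta-catenin, which then acts in the nucleus with TCF and LEF factors and switches on feedback targets such as Axin2. Secreted Frizzled-related proteins and WIF1 bind Wnt ligands, DKK1 and DKK2 act on the co-receptors, and R-spondins acting through LGR receptors keep Frizzled proteins at the cell surface. Other branches, in which Ror receptors take part, control cell shape and movement. In the lung the pathway is best known for its part in development and in the renewal of the epithelium.

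The libraries came from tumor cells of 3 genotypes, with 3 animals per genotype and 3 libraries per genotype and assay. TKO mice carried conditional alleles of Rb1, p53 and a further retinoblastoma family gene, which the sample labels give as Rbl1 and the study's text as Rbl2. The TKO;Carm1KO mice (CARM1 knockout) carried these alleles and also lacked Carm1, which encodes an arginine methyltransferase, and in the TKO;Nfib R388K mice (NFIB mutant) an arginine of the transcription factor NFIB was replaced by lysine. Adenovirus carrying Cre was given into the lungs of mice aged 8 weeks, and cells were isolated 28 weeks later. The 3 TKO alleles and the virus were common to all groups, whereas the Carm1 and Nfib alleles differed between them. All groups were sampled at the same time after the virus, and the study reports lower tumor burden and longer survival in both mutants. Tumor stage may therefore differ between the genotypes, and its part was not tested. The methods describe cells sorted for the tdTomato reporter, whereas the study's text also names biopsies and, for ATAC-seq, cell lines, and the source of the cells is therefore not settled here.

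Between 15848866 and 20915057 reads per RNA-seq library were counted on genes and between 26917178 and 47653979 reads per ATAC-seq library on peaks. Levels are given as CPM, that is, counts divided by the size of the library and scaled with the TMM factors of edgeR, and 3 counts, the limit below which a gene is taken as not detected, came to 0.131 to 0.203 CPM. This limit covers counting error only. CPM do not correct for gene length, so levels of different genes are compared per kb of exon. Cell type markers differed strongly between the genotypes. The 6 fibroblast markers summed to 11.1 to 63.3 CPM in TKO, 14400 to 25800 CPM in the CARM1 knockout and 9460 to 15900 CPM in the NFIB mutant, with 5 of 6 called higher in both mutants and none at 0 in any genotype. The 12 neuroendocrine markers summed to 1760 to 3920 CPM in TKO and to 33.5 to 51.1 CPM in the NFIB mutant, where Calca and Neurod1 were at or under 3 counts, with 2 of 12 called lower in both mutants. CARM1 knockout replicate 3 stood apart, since it held 1860 CPM of these markers against 59.2 and 188 CPM in the other knockout libraries, and Neurod1 was at or under 3 counts in all of them. Leukocyte markers summed to 4.69 to 56.4, 180 to 2670 and 27.0 to 525 CPM in the same order of genotypes, with Cd3e and Nkg7 at or under 3 counts in each, and lung epithelial markers to 282 to 630, 2.71 to 523 and 1.08 to 2280 CPM. In bulk libraries fewer cells of a type and less RNA per cell cannot be told apart, and the part of these markers in the results below was not tested. Carm1 itself was at 97.6, 103 and 44.5 CPM in TKO and 63.3, 79.0 and 50.7 CPM in the CARM1 knockout, a difference that was not called (log2 fold change -0.34, edgeR adjusted p = 0.410), and gene counts do not resolve a deleted exon. Nfib was at 420, 579 and 570 CPM in TKO, 74.4, 216 and 87.1 CPM in the CARM1 knockout and 105, 83.2 and 91.3 CPM in the NFIB mutant, and was called lower in both (log2 fold change -2.06 and -2.49, edgeR adjusted p = 0.00800 and 0.00325), so that the NFIB mutant differed from TKO in the level of Nfib RNA as well as in its allele. Reads outside annotated genes made up 12.2, 10 and 11% in TKO and 3.65 to 5.17% in the 6 mutant libraries, a difference that runs with every comparison against TKO and whose part was not tested.

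RefSeq promoter windows (GRCm38.p6) were at hand for 35 of the 50 genes, and those of 5 genes are shown, each overlapping a start-site peak that moved, past the test, the same way in both mutants. Expression was called with the peak in both mutants for Fzd7 and Axin2, in the NFIB mutant for Rspo1 and Wnt3, and in neither for Wnt7a. Fzd7 (chr1:59481897-59482146, plus strand) and Rspo1 (chr4:124986180-124986429, plus strand) lay at peaks that were more accessible in the mutants. Axin2 (chr11:108920099-108920348, plus strand), Wnt3 (chr11:103773925-103774174, plus strand) and Wnt7a (chr6:91411354-91411603, minus strand) lay at peaks that were less accessible. At the Rspo1 and Wnt3 peaks some mutant libraries overlapped TKO. Fzd2, Dkk3, Sfrp1, Wnt10a and Fzd3 would have come before some of these by size of change and had no entry. Each run is the 250 bases before the RefSeq start, read 5′ to 3′ on the strand of the gene, with CpG dinucleotides in capitals.
Fzd7: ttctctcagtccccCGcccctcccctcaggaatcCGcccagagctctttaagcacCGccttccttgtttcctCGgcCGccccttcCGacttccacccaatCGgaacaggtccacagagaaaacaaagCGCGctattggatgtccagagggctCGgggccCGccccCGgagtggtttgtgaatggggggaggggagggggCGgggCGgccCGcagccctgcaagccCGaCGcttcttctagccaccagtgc
Rspo1: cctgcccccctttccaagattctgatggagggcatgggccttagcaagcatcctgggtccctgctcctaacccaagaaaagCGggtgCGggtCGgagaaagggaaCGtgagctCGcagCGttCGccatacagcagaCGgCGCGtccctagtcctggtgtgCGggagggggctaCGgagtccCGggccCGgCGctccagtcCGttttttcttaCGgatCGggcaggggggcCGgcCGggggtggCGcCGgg
Axin2: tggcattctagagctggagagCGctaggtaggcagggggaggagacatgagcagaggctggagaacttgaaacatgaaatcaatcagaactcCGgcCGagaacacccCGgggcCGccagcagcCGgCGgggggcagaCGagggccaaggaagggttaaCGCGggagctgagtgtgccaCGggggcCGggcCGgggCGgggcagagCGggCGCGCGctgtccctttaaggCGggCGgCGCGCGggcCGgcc
Wnt3: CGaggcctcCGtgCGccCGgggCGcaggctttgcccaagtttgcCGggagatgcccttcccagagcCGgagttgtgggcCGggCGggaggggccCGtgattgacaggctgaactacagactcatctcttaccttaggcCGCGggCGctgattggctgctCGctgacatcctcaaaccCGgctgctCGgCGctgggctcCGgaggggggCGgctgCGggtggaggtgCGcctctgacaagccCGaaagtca
Wnt7a: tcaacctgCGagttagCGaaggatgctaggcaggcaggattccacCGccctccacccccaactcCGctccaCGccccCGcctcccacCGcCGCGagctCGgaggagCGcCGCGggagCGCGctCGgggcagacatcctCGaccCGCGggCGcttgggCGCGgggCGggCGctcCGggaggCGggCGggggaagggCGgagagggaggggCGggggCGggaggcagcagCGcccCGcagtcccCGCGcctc

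All 5 windows were rich in CpG. Fzd7 had 17 CpG in 250 bases, Rspo1 and Wnt3 22 each, Axin2 24 and Wnt7a 34, and the median over the 32851 promoter windows of the reference was 6. The median over the 35 listed genes was 22, so that CpG content was shared by promoters that gained and promoters that lost accessibility. The letters ATCAAAG, 1 form of the core bound by TCF and LEF factors, were searched on both strands. They were in none of the 5 windows, in 2 of the 35 listed genes (Wnt5b and Wnt11) and in 3.21% of all promoters. Other forms of this core were not searched, so sites for these factors in the windows are not excluded. The full NFI palindrome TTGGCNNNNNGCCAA was in none of the 35 and in 0.0365% of all promoters. TTGGCA, its half-site with an A added, was in 1 of the 35 (Wnt5b) and in 12.3% of all promoters.

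The Frizzled receptors Fzd1, Fzd2 and Fzd7, the secreted proteins Sfrp1 and Dkk3, and the transcription factor Tcf7 were higher in both mutants. Fzd3, Fzd9, the R-spondin receptor Lgr4 and the feedback target Axin2 were lower in both. Counts of calls rest on the quasi-likelihood test of edgeR, with p-values adjusted over all 15514 genes by the Benjamini-Hochberg method. A gene was called where the adjusted p lay under 0.1 and the log2 fold change was 0.8 or more in size. In the CARM1 knockout 9 listed genes were called higher, 4 lower and 26 not called, beside 38.8% of all genes tested that were called in either direction (20.5% higher and 18.3% lower). In the NFIB mutant 8 were called higher, 7 lower and 24 not called, beside 45.8% of all genes (22.3% higher and 23.5% lower). In both mutants 6 were called higher and 4 lower, against 17.9% and 15.4% of all genes, so the share of listed genes that moved was not above that of the whole table. The median log2 fold change of the 39 genes was 0.79 in the CARM1 knockout and 1.21 in the NFIB mutant, where the median of all genes was -0.03 and -0.05. Without CARM1 knockout replicate 3 the counts for the knockout were 8 higher and 5 lower, and without TKO replicate 2 they were 5 higher and 2 lower. Of the 10 genes called in both mutants, the log2 fold changes in the knockout without its replicate 3 were 4.41 for Fzd1, 6.52 for Fzd2, 5.83 for Fzd7, 6.20 for Dkk3, 2.70 for Tcf7, -1.96 for Lgr4, -2.28 for Fzd3, -1.94 for Fzd9 and -2.82 for Axin2, all still called. Sfrp1 at 3.79 was not (edgeR adjusted p = 0.135).

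**Figure D1:**
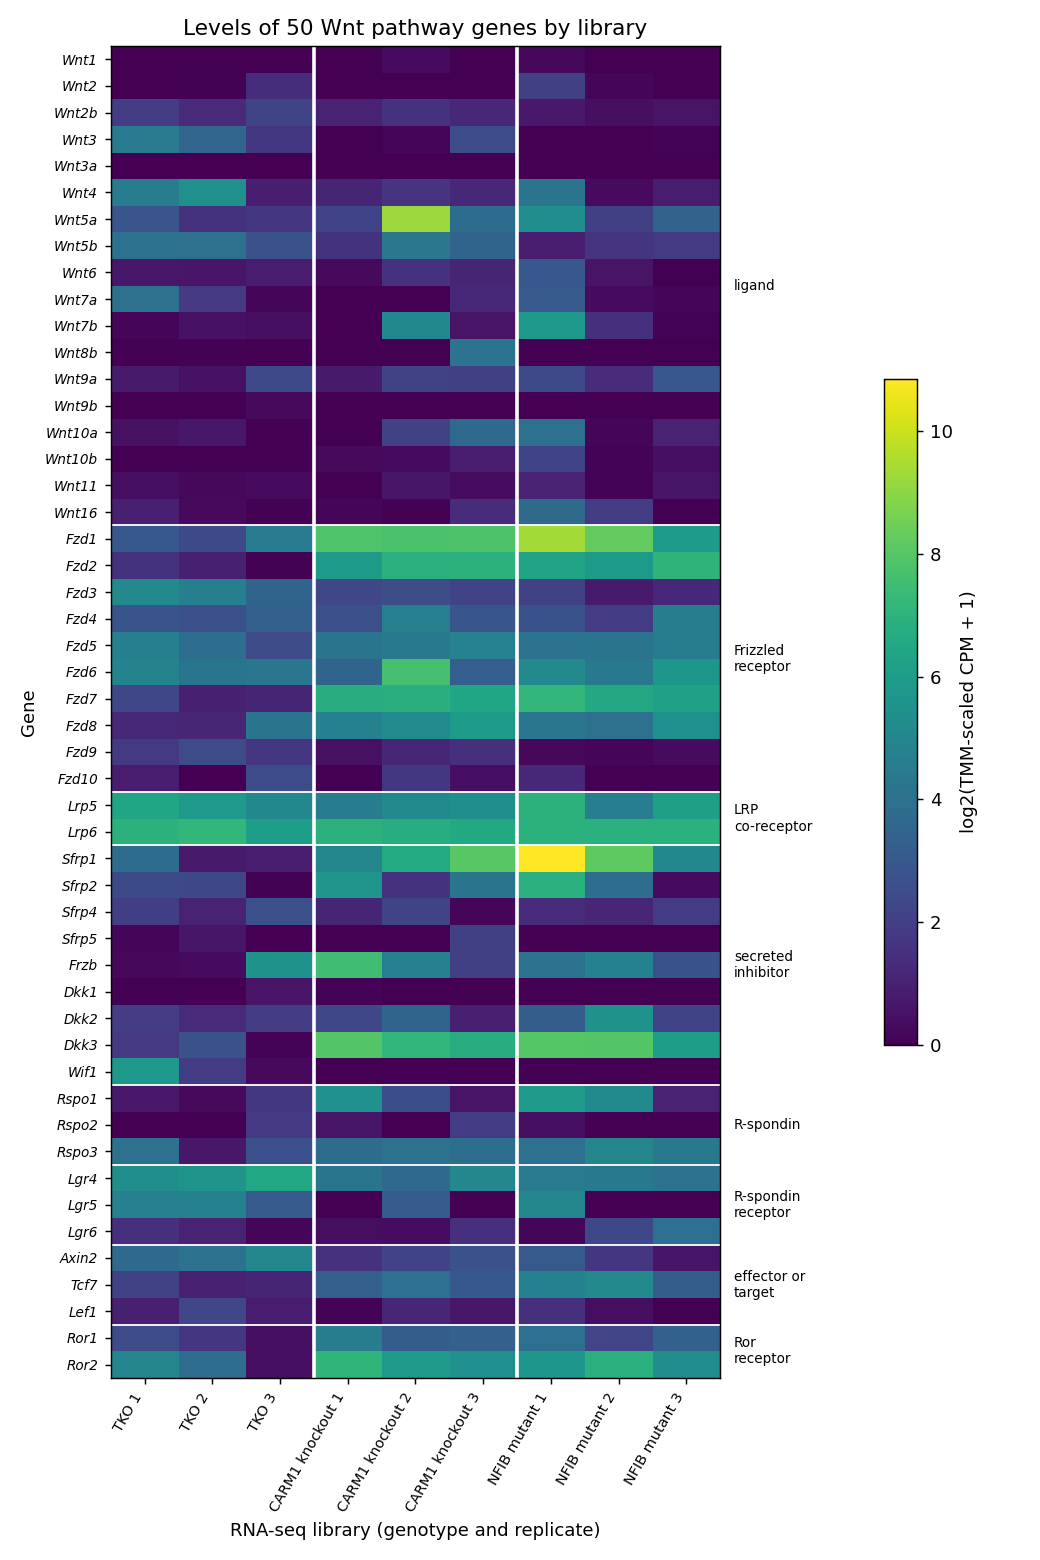
Levels of the 50 Wnt pathway genes (vertical axis, grouped by role) in the 9 RNA-seq libraries (horizontal axis, 3 per genotype), as log2(CPM + 1) by color. Fzd1, Fzd2, Fzd7 and Dkk3 are brighter in all 6 mutant libraries than in TKO, while most of the 18 ligands are dark and brighten in single libraries.

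Among the 18 ligands none was called in both mutants. The test covered 11 of them, and Wnt1, Wnt2, Wnt3a, Wnt8b, Wnt9b, Wnt10b and Wnt11 had too few counts. Wnt3, a canonical ligand, was at 20.3, 10.8 and 2.39 CPM in TKO, 0, 0.116 and 4.66 CPM in the CARM1 knockout and 0, 0 and 0.0634 CPM in the NFIB mutant. All 3 NFIB mutant libraries lay below all TKO libraries, and of the knockout libraries replicate 3, the one that kept neuroendocrine markers, reached into the TKO range. The NFIB mutant libraries held 1 count of Wnt3 in all, and the ratio of TKO to NFIB mutant was 530 with a 95% counting interval of 95.1 to 20900 (edgeR log2 fold change -8.66, standard error 2.41, adjusted p = 0.0230). In the CARM1 knockout the log2 fold change was -2.80 and was not called (edgeR adjusted p = 0.226).

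Wnt2b and Wnt5b were also called lower in the NFIB mutant. Wnt2b averaged 2.62 ± 1.12 CPM in TKO, 1.51 ± 0.486 CPM in the CARM1 knockout and 0.515 ± 0.149 CPM in the NFIB mutant (SD, n = 3 each), and its log2 fold change in the NFIB mutant was -2.33 (edgeR adjusted p = 0.0127). Wnt5b, a ligand of the branches without beta-catenin, averaged 12.2 ± 5.77, 10.3 ± 8.30 and 1.81 ± 0.908 CPM (SD, n = 3 each), with a log2 fold change of -2.75 in the NFIB mutant (edgeR adjusted p = 0.0347) and -0.24 in the knockout. These 3 ligands were thus called lower in the NFIB mutant and not in the CARM1 knockout, but no listed gene was called between the mutants, and for Wnt5b the difference between them was 2.51 (edgeR adjusted p = 0.524). DESeq2 called that difference at 2.50 (adjusted p = 0.0850).

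Several ligands were high in a single tumor. Wnt5a, the best known ligand of Ror receptors, was at 588 CPM in CARM1 knockout replicate 2 and at 3.52 and 13.5 CPM in the other knockout libraries. TKO held 6.24, 1.97 and 2.26 CPM of Wnt5a and the NFIB mutant 38.4, 3.20 and 9.83 CPM, so the genotypes overlapped although the gene was called higher in the knockout (log2 fold change 5.86, edgeR adjusted p = 0.0540). Wnt7b reached 32.7 CPM in that same knockout library and 53.9 CPM in NFIB mutant replicate 1, against 0.0959 to 0.437 CPM in TKO, and was not called in either mutant. NFIB mutant replicate 1 was also the highest NFIB mutant library for Wnt4 (16.9 CPM), Wnt10a (15.1 CPM), Wnt16 (12.3 CPM), Wnt7a (7.34 CPM) and Wnt6 (6.80 CPM), and it was the library with 2280 CPM of lung epithelial markers. Wnt8b was at 16.7 CPM in CARM1 knockout replicate 3 and had at most 1 count elsewhere.

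The remaining ligands were low or scattered. Wnt4 was at 23.5 and 42.8 CPM in TKO replicates 1 and 2 but 0.885 CPM in replicate 3, and its log2 fold changes of -3.85 and -1.90 were not called. Wnt7a, at 15.2, 2.45 and 0.133 CPM in TKO, was as uneven. Wnt9a stayed between 0.393 and 6.72 CPM, Wnt11 reached 1.03 CPM at most, and Wnt1 and Wnt9b did not exceed 0.233 CPM. Wnt2 was above 0.123 CPM in only 2 libraries, TKO replicate 3 with 1.68 CPM and NFIB mutant replicate 1 with 3.16 CPM. Wnt10b had no count in TKO and 0.0615 to 3.52 CPM in the 6 mutant libraries. Wnt3a had no count in any of the 9 libraries, which at this depth allows a level of up to 0.203 CPM in the shallowest.

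The 10 Frizzled receptors, which bind the ligands at the cell surface, were all tested. Fzd1 was at 7.0, 4.19 and 21.1 CPM in TKO, 235, 212 and 227 CPM in the CARM1 knockout and 656, 306 and 62.9 CPM in the NFIB mutant. Every mutant library lay above every TKO library, the knockout libraries were close to each other and those of the NFIB mutant spanned a wide range. The log2 fold change was 4.38 (standard error 0.93, edgeR adjusted p = 0.0105) in the knockout and 4.99 (standard error 0.96, edgeR adjusted p = 0.00585) in the NFIB mutant. Without TKO replicate 3, the highest of its group, these were 5.36 and 5.96, and without NFIB mutant replicate 1 the latter change was 4.11.

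Fzd2 was at 2.01, 0.961 and 0.0442 CPM in TKO, 59.6, 119 and 124 CPM in the CARM1 knockout and 78.8, 60.1 and 133 CPM in the NFIB mutant. The lowest mutant library held far more than the highest TKO library, and TKO replicate 3 was below the detection limit. The log2 fold change was 6.65 (standard error 1.02, edgeR adjusted p = 0.00326) in the knockout and 6.49 (standard error 1.01, edgeR adjusted p = 0.00262) in the NFIB mutant, or 7.65 and 7.49 without TKO replicate 1. Fzd7 followed the same pattern, with 3.98, 0.917 and 1.19 CPM in TKO, 109, 114 and 85.1 CPM in the knockout and 143, 93.3 and 72.4 CPM in the NFIB mutant. Its groups did not overlap, and the log2 fold change was 5.66 with a standard error of 0.63 in each mutant (edgeR adjusted p = 0.00109 and 0.000866), or 6.61 and 6.60 without TKO replicate 1.

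Fzd3 and Fzd9 went the other way. Fzd3, a receptor known for its part in axon guidance and cell polarity, was at 33.3, 23.9 and 10.4 CPM in TKO, 3.99, 4.95 and 3.65 CPM in the CARM1 knockout and 3.34, 0.739 and 1.33 CPM in the NFIB mutant. No mutant library reached the lowest TKO library, and the log2 fold change was -2.42 (standard error 0.64, edgeR adjusted p = 0.0230) and -3.64 (standard error 0.68, edgeR adjusted p = 0.00513). Without NFIB mutant replicate 1 the latter was -4.42. Fzd9 was at 2.64, 4.80 and 2.30 CPM in TKO, 0.406, 1.22 and 1.79 CPM in the knockout and 0.182, 0.123 and 0.254 CPM in the NFIB mutant. It was lower in every mutant library and near the detection limit in the NFIB mutant, with a log2 fold change of -4.08 (standard error 0.73, edgeR adjusted p = 0.00424). In the knockout the change of -1.50 (standard error 0.64) passed the threshold barely (edgeR adjusted p = 0.0992) and was lost without any of the libraries other than knockout replicate 3 and when only the compared libraries were fitted, with an adjusted p of up to 0.273.

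Of the other Frizzled genes only Fzd8 was called, in the CARM1 knockout. It averaged 6.52 ± 9.11 CPM in TKO, 40.4 ± 16.8 CPM in the CARM1 knockout and 25.2 ± 14.9 CPM in the NFIB mutant (SD, n = 3 each) and its log2 fold change in the knockout was 2.63 (edgeR adjusted p = 0.0855), with TKO replicate 3 at 17.0 CPM and the other TKO libraries at 1.30 and 1.22 CPM. In the NFIB mutant its change of 1.95 was not called (edgeR adjusted p = 0.156). Fzd6 was at 200 CPM in CARM1 knockout replicate 2, the library with the high Wnt5a, and between 8.41 and 51.5 CPM in the other 8 libraries. Fzd4, Fzd5 and Fzd10 were not called, and Fzd5 kept a level of 4.73 to 26.9 CPM over the 9 libraries.

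Per kb of exon the order of the Frizzled genes differed between TKO and the mutants. In TKO Fzd6 led with a mean of 4.40 ± 1.23 CPM per kb, followed by Fzd1 (2.57 ± 2.16), Fzd5 (2.11 ± 1.45), Fzd3 (1.76 ± 0.902) and Fzd9 (1.42 ± 0.592), while Fzd7 (0.448 ± 0.374) and Fzd2 (0.275 ± 0.269) were last (SD, n = 3 each). The neighbours in that order lay within each other's spread. In the CARM1 knockout Fzd1 (53.6 ± 2.88 CPM per kb), Fzd2 (27.5 ± 9.79) and Fzd7 (22.7 ± 3.43) led, with Fzd1 beyond the spread of Fzd2 and the last pair within theirs. In the NFIB mutant the leading genes were again Fzd1 (81.4 ± 71.0 CPM per kb), Fzd2 (24.7 ± 10.3) and Fzd7 (22.7 ± 8.04), here all within their spread. Fzd3 and Fzd9 were among the last 4 in both mutants.

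The co-receptors Lrp5 and Lrp6, which carry the canonical signal, were well expressed in every library and were not called. Lrp6 was at 123, 144 and 66.1 CPM in TKO, 126, 106 and 95.7 CPM in the CARM1 knockout and 120, 120 and 122 CPM in the NFIB mutant, with log2 fold changes of -0.02 (standard error 0.27) and 0.12 (standard error 0.27). The groups overlapped. Lrp5 ranged from 22.9 to 125 CPM over the 9 libraries, with log2 fold changes of -0.79 and 0.37.

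Of the 9 secreted inhibitors, 6 were tested and Sfrp5, Dkk1 and Wif1 were too low in too many libraries. Dkk3, which is related to the DKK inhibitors by sequence but whose action on the pathway is less clear, was at 2.49, 5.55 and 0.0885 CPM in TKO, 245, 141 and 107 CPM in the CARM1 knockout and 257, 245 and 66.2 CPM in the NFIB mutant. The mutant libraries lay far above TKO without overlap. The log2 fold change was 5.92 (standard error 1.20, edgeR adjusted p = 0.00891) in the knockout and 6.12 (standard error 1.21, edgeR adjusted p = 0.00648) in the NFIB mutant, and 6.99 and 7.20 without TKO replicate 2.

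Sfrp1, which binds Wnt ligands outside the cell, was at 13.2, 0.742 and 0.796 CPM in TKO, 31.0, 99.0 and 262 CPM in the CARM1 knockout and 1850, 287 and 32.9 CPM in the NFIB mutant. Every mutant library was higher than every TKO library, but both mutants were spread widely, and NFIB mutant replicate 1 with 1850 CPM was the highest value of any listed gene. In the NFIB mutant the log2 fold change was 7.20 (standard error 2.0, edgeR adjusted p = 0.0227), or 5.04 without that library. In the knockout it was 4.74 (standard error 1.78, edgeR adjusted p = 0.0720), and the call ended without TKO replicate 2 or 3 or without knockout replicate 2 or 3, with an adjusted p of up to 0.165. Leaving out TKO replicate 1, the high library of that group, raised the changes to 7.40 in the knockout and 9.86 in the NFIB mutant.

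Dkk2 was called higher in the NFIB mutant, with means of 2.37 ± 0.768, 5.10 ± 4.84 and 19.8 ± 24.0 CPM in TKO, CARM1 knockout and NFIB mutant (SD, n = 3 each) and a log2 fold change of 3.06 (edgeR adjusted p = 0.0617). The highest value was that of NFIB mutant replicate 2 at 47.3 CPM, and the others were 8.32 and 3.62 CPM. In the knockout its change of 1.10 was not called, nor was the difference between the mutants (edgeR adjusted p = 0.442 and 0.627). Sfrp2 reached 118 CPM in NFIB mutant replicate 1 and 49.1 CPM in CARM1 knockout replicate 1 but 0.254 and 2.04 CPM in other mutant libraries, and was not called. Frzb, a further secreted Frizzled-related protein, was at 0.192, 0.262 and 46.9 CPM in TKO and 184, 25.7 and 3.14 CPM in the knockout, and was not called either. Sfrp4 stayed at or below 5.31 CPM, Sfrp5 at or below 3.20 CPM and Dkk1 at or below 0.487 CPM.

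Wif1, which binds Wnt ligands, was not detected in the mutants. It was at 54.8, 2.66 and 0.221 CPM in TKO, and no read of it was counted in any of the 6 mutant libraries. With 3 counts per mutant library as the limit, the TKO mean was at least 106-fold higher than in the CARM1 knockout and at least 104-fold higher than in the NFIB mutant. These bounds rested on TKO replicate 1, without which they were 7.93 and 7.77, and the gene had too few counts in most libraries to be tested.

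R-spondins and their receptors did not move together. Rspo1 averaged 1.08 ± 1.12 CPM in TKO, 16.4 ± 23.6 CPM in the CARM1 knockout and 31.1 ± 28.0 CPM in the NFIB mutant (SD, n = 3 each) and was called in the NFIB mutant (log2 fold change 4.84, edgeR adjusted p = 0.0710). In each mutant 1 library, replicate 3, stayed within the TKO range at 0.505 and 1.08 CPM. Rspo3 ranged from 13.5 to 29.6 CPM in the mutants and from 0.611 to 16.2 CPM in TKO and was not called, and Rspo2 did not exceed 2.69 CPM.

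Lgr4, a receptor for R-spondins, was at 41.2, 48.7 and 89.1 CPM in TKO, 17.5, 12.2 and 31.9 CPM in the CARM1 knockout and 21.3, 20.0 and 16.3 CPM in the NFIB mutant. All 6 mutant libraries were lower than all 3 TKO libraries. The log2 fold change was -1.54 (standard error 0.42, edgeR adjusted p = 0.0251) and -1.63 (standard error 0.42, edgeR adjusted p = 0.0170). Lgr5, a receptor that marks stem cells of several epithelia, was at 25.8, 26.4 and 7.34 CPM in TKO, 0, 7.34 and 0 CPM in the knockout and 30.2, 0 and 0 CPM in the NFIB mutant. It was thus undetected in 4 of the 6 mutant libraries and at TKO levels in CARM1 knockout replicate 2 and NFIB mutant replicate 1, and was not called. Lgr6 was low in TKO (0.133 to 1.73 CPM) and reached 14.5 CPM in NFIB mutant replicate 3.

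Of the genes read as part of the nuclear response, Axin2 and Tcf7 moved in opposite directions. Axin2, a feedback inhibitor switched on by beta-catenin in many tissues, was at 12.1, 15.6 and 31.2 CPM in TKO, 1.90, 3.49 and 5.50 CPM in the CARM1 knockout and 7.53, 2.28 and 0.571 CPM in the NFIB mutant. No mutant library reached the lowest TKO library. The log2 fold changes of -2.43 (standard error 0.90, edgeR adjusted p = 0.0679) and -2.50 (standard error 0.90, edgeR adjusted p = 0.0546) were close to the threshold. In the knockout the call ended without TKO replicate 2 or 3 or knockout replicate 1 or 2 (adjusted p up to 0.180), and in the NFIB mutant without TKO replicate 3 or NFIB mutant replicate 2 (adjusted p up to 0.147). Without NFIB mutant replicate 1 the change there was -3.77.

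Tcf7, which encodes the factor TCF1, was at 3.41, 1.0 and 1.15 CPM in TKO, 8.87, 14.4 and 6.90 CPM in the CARM1 knockout and 26.6, 33.7 and 8.31 CPM in the NFIB mutant. The groups did not overlap, with log2 fold changes of 2.44 (standard error 0.69, edgeR adjusted p = 0.0288) and 3.62 (standard error 0.72, edgeR adjusted p = 0.00669), or 3.23 and 4.41 without TKO replicate 1. Tcf7 is also expressed in T cells, and the summed leukocyte markers were higher in most mutant libraries than in TKO (180 to 2670 and 27.0 to 525 CPM against 4.69 to 56.4 CPM, 2 of 12 called higher in both), with Cd3e at or under 3 counts in every genotype. Their part in the Tcf7 difference was not tested. Lef1 was at or below 3.97 CPM in every library and was not called.

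Of the Ror receptors, which respond to Wnt5a, 1 was called, in the CARM1 knockout. This was Ror1, which averaged 2.41 ± 2.13 CPM in TKO, 13.6 ± 8.65 CPM in the CARM1 knockout and 9.23 ± 5.37 CPM in the NFIB mutant (SD, n = 3 each). Its log2 fold change in the knockout was 2.50 (edgeR adjusted p = 0.0705). Ror2 was at 30.0, 13.9 and 0.310 CPM in TKO, 138, 56.7 and 43.1 CPM in the knockout and 50.9, 116 and 39.8 CPM in the NFIB mutant. Its mutant libraries all lay above TKO, but TKO was spread widely and the changes of 2.43 and 2.23 were not called (edgeR adjusted p = 0.145 and 0.160). Among the tested genes Ror2 was the only one beside the 6 called higher in both mutants whose 6 mutant libraries all exceeded TKO, which made 7 of 39 tested genes against 22.3% of all genes. The 4 called lower were the only tested ones below TKO in all 6 libraries, against 23.3%.

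**Figure D2:**
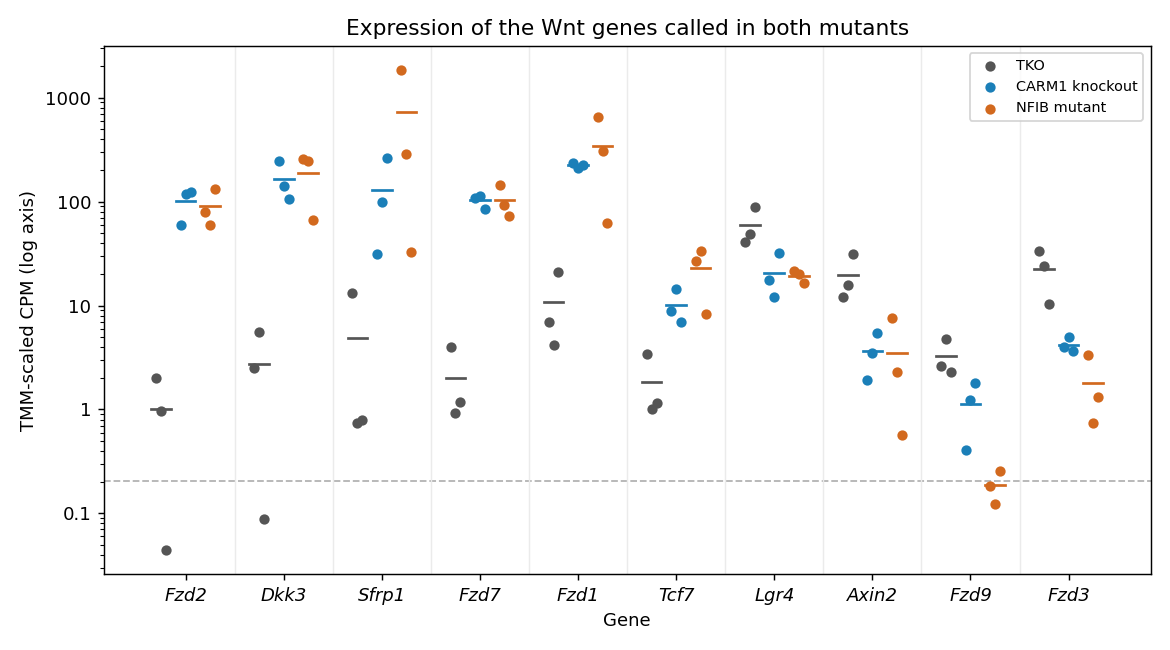
Expression of the 10 Wnt genes whose call was the same in both mutants, in CPM on a log axis, with 1 point per library, a bar at the mean of each genotype and a dashed line at 0.203 CPM, the highest detection limit of 3 counts. From Fzd2 to Tcf7 all mutant points lie above the TKO points, and from Lgr4 to Fzd3 all lie below them.

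The 2 mutants were compared directly to ask whether losing CARM1 and losing the methylated arginine of NFIB gave the same Wnt profile. No listed gene was called between them by edgeR, where 0% of all 15514 genes were called. The smallest adjusted p was 0.495, for Fzd9, and 4 listed genes had an unadjusted p under 0.05. DESeq2 called 2, Wnt5b (log2 difference 2.50, adjusted p = 0.0850) and Fzd9 (2.61, adjusted p = 0.0857), both higher in the CARM1 knockout than in the NFIB mutant. For Fzd7 the fitted difference was -0.00 and for Fzd2 0.15, whereas for Sfrp1 it was -2.46 and for Wnt3 5.86, with the wide spread of those genes. Since both mutants were compared with the same TKO libraries, the likeness of their changes is not an independent repeat.

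At the start sites of the listed genes some peaks gained accessibility and others lost it. Peaks were tested as the genes were, over 111116 peaks, and the call needed 0.5 or more in log2 fold change in place of 0.8. In the whole table, 71.1% and 73.3% of peaks were called in the CARM1 knockout and the NFIB mutant. Of the 56 start-site peaks, 12 were called higher and 14 lower in the CARM1 knockout, beside 55.0% of the start-site peaks of any gene that were called (20.0% higher and 35.1% lower). In the NFIB mutant 11 were called higher and 18 lower, beside 59.8% (20.4% higher and 39.4% lower). Both mutants shared 11 higher and 13 lower, against 17.7% and 32.7% of start-site peaks of any gene. Without CARM1 knockout replicate 3 the counts in the knockout were 13 higher and 11 lower. All 6 mutant libraries lay above TKO at 10 of the 56 peaks and below it at 12, against 17.4% and 37.3%. The median log2 fold change was -0.13 in each mutant. This split depended on the scaling. With library totals alone the calls were 18 higher and 2 lower in the knockout and 21 higher and 8 lower in the NFIB mutant, and with depth taken from peaks of 1288 uniformly expressed genes they were 16 and 5, and 18 and 8, as the median over all peaks moved by 0.57 under the first and by 0.35 and 0.43 under the second scaling.

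Of the 10 genes whose call was shared by both mutants, Fzd2 had the largest mean gain at its start. Its peak (chr11:102602506-102606553) was at 12.8, 10.9 and 11.9 CPM in TKO, 43.2, 52.5 and 42.5 CPM in the CARM1 knockout and 40.8, 45.9 and 57.9 CPM in the NFIB mutant. The groups were far apart and tight, and the log2 fold change was 1.95 (standard error 0.18, edgeR adjusted p = 2.82e-05) and 2.02 (standard error 0.18, edgeR adjusted p = 2.13e-05). The Fzd7 peak (chr1:59480709-59485651) was at 21.9, 25.9 and 42.8 CPM in TKO, 65.8, 80.4 and 64.9 CPM in the knockout and 64.6, 80.2 and 74.2 CPM in the NFIB mutant. It did not overlap between TKO and mutants, with log2 fold changes of 1.22 (edgeR adjusted p = 0.00115) and 1.27 (edgeR adjusted p = 0.000829), and it holds the Fzd7 window printed above.

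Dkk3 and Sfrp1 gained accessibility as well. The Dkk3 peak (chr7:112157169-112159544) was at 3.76, 4.45 and 2.32 CPM in TKO, 14.3, 10.9 and 7.98 CPM in the CARM1 knockout and 12.5, 13.5 and 4.98 CPM in the NFIB mutant, with log2 fold changes of 1.65 and 1.55 (edgeR adjusted p = 0.00767 and 0.00986). The Sfrp1 peak (chr8:23410090-23412492) was at 2.49, 2.41 and 9.12 CPM in TKO, 10.3, 14.9 and 17.9 CPM in the knockout and 21.3, 24.4 and 10.5 CPM in the NFIB mutant, with log2 fold changes of 1.63 and 2.01 (edgeR adjusted p = 0.0188 and 0.00674). For both genes every mutant library was above TKO.

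Fzd1 and Tcf7 did not follow this pattern. The Fzd1 peak (chr5:4755612-4759092) was at 32.9, 43.0 and 59.0 CPM in TKO, 39.1, 56.2 and 39.2 CPM in the CARM1 knockout and 41.6, 46.8 and 33.9 CPM in the NFIB mutant. The genotypes overlapped fully, and the log2 fold changes of -0.00 (standard error 0.23) and -0.14 (standard error 0.23), whose sign turned under other scalings, stood beside the rise of its transcript. The Tcf7 peak (chr11:52282090-52283926) was at 9.24, 6.46 and 12.2 CPM in TKO, 10.5, 11.8 and 11.3 CPM in the knockout and 15.1, 11.5 and 9.53 CPM in the NFIB mutant, which also overlapped, with changes of 0.27 and 0.37 that were not called.

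The genes that fell in expression had less accessible starts. The Axin2 peak (chr11:108919859-108922616), which holds the printed Axin2 window, was at 48.6, 42.0 and 55.3 CPM in TKO, 19.0, 27.8 and 26.6 CPM in the CARM1 knockout and 23.2, 21.7 and 17.5 CPM in the NFIB mutant. All mutant libraries were lower, with log2 fold changes of -0.99 (edgeR adjusted p = 0.00154) and -1.23 (edgeR adjusted p = 0.000454). The Fzd3 peak (chr14:65261050-65263054) was at 37.5, 32.7 and 25.9 CPM in TKO, 14, 18.5 and 17.1 CPM in the knockout and 13.4, 8.13 and 9.36 CPM in the NFIB mutant, with changes of -0.96 and -1.64 (edgeR adjusted p = 0.00573 and 0.000324). The Lgr4 peak (chr2:109916889-109919395) was at 62.5, 65.2 and 54.1 CPM in TKO, 28.0, 39.7 and 36.2 CPM in the knockout and 30.5, 41.0 and 36.1 CPM in the NFIB mutant, with changes of -0.81 and -0.76 (edgeR adjusted p = 0.00240 and 0.00312). None of these groups overlapped TKO, but with library totals alone the calls at Axin2 and Fzd3 in the knockout, and at Lgr4 in both mutants, were lost. The Lgr4 call was also lost in both mutants with depth from uniformly expressed genes (-0.47 and -0.35).

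At Fzd9 the peak was called in the NFIB mutant and not in the CARM1 knockout. It (chr5:135250054-135251658) was at 19.1, 23.3 and 21.7 CPM in TKO, 15.5, 18.5 and 18.6 CPM in the CARM1 knockout and 8.78 to 11 CPM in the NFIB mutant. The NFIB mutant libraries were the lowest and the knockout libraries lay between them and TKO, with changes of -1.11 (edgeR adjusted p = 0.00100) and -0.29 (edgeR adjusted p = 0.229). Between the mutants no start-site peak of the list was called by edgeR, where 0% of all start-site peaks were called, the smallest adjusted p was 0.574 and 3 peaks had an unadjusted p under 0.05. DESeq2 called 1, that of Fzd9, with a difference of 0.79 (adjusted p = 0.0321).

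**Figure D3:**
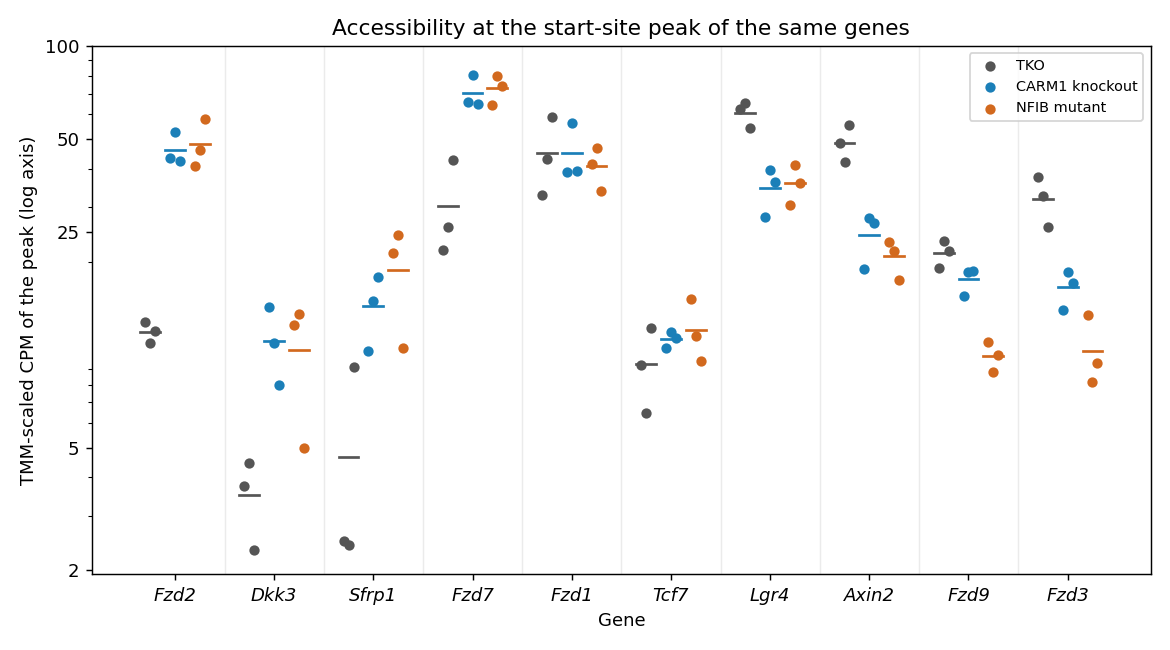
Accessibility of the start-site peak with the most reads of each of the same 10 genes, in CPM of the peak on a log axis, with 1 point per library and a bar at the mean of each genotype. The TKO points at Fzd2, Dkk3, Sfrp1 and Fzd7 lie below all mutant points, those at Fzd1 and Tcf7 mix with them, and those at Lgr4, Axin2, Fzd9 and Fzd3 lie above them.

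Several genes with more than 1 start had peaks that went different ways. Of 3 Lgr6 start-site peaks the pair at internal starts gained, with log2 fold changes of 2.79 and 3.06 at the first and 1.96 and 2.02 at the second in the CARM1 knockout and NFIB mutant, while the peak of the most upstream start was not called (-0.33 and 0.18). Wnt5b gained at a middle start (2.49 and 2.28) and lost at its most upstream start (-0.77 and -1.83). Ror2 gained at an internal start (2.30 and 3.23) with few reads, and its main start was not called (0.58 and 0.51). Wnt5a gained in the knockout at a peak shared with Gm2670 (2.06, edgeR adjusted p = 0.0326). That peak held 10.6 CPM in knockout replicate 2 against 1.11 and 3.26 CPM in the others. The Wnt5a peak with the most reads was not called there (0.17). Gene counts do not tell the transcripts of these starts apart.

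Some called peaks lay at genes too low in RNA to be tested, or not called in both mutants. The Wnt1 peak rose from 4.75, 3.86 and 8.19 CPM in TKO to 15.4, 16.1 and 11.3 CPM in the CARM1 knockout and 18.3, 15.2 and 12.3 CPM in the NFIB mutant, with log2 fold changes of 1.35 and 1.45 (edgeR adjusted p = 0.00479 and 0.00318). Its RNA did not exceed 0.233 CPM in any library. Wnt10a rose by 1.96 in each mutant at a peak with under 2 CPM, and Rspo1 by 1.43 and 1.38 at a start it shares with Gm12930, where replicate 3 of each mutant stayed in the TKO range. Among genes not tested for expression, falls were called at Wnt9b (-1.28 and -1.82), at the Wnt11 peak with more reads (-0.86 and -1.16) and at Wif1 (-0.77 and -0.90), where the peak kept 13 to 21.4 CPM in the mutants although no transcript was counted.

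Wnt7a and Lgr5 had the largest falls of any start-site peak of the list. The Wnt7a peak (chr6:91408487-91412389), which holds the printed Wnt7a window, was at 53.9, 40.7 and 18 CPM in TKO, 3.41, 4.91 and 9.16 CPM in the CARM1 knockout and 8.22, 3.82 and 3.71 CPM in the NFIB mutant, with log2 fold changes of -2.69 and -2.84 (edgeR adjusted p = 0.00117 and 0.000810). The Lgr5 peak (chr10:115586040-115588469) was at 49.2, 58.6 and 43.5 CPM in TKO, 4.34, 21.7 and 2.37 CPM in the knockout and 18.2, 4.59 and 2.28 CPM in the NFIB mutant, with changes of -2.41 and -2.60 (edgeR adjusted p = 0.0259 and 0.0184). The study's text says that both assays used the same tumor biopsies, but the labels do not tie libraries of the same number to 1 animal. In each mutant 1 library of each assay was well above the other 2 at Lgr5. Lower accessibility in both mutants was also called at Wnt3 (-1.18 and -1.41), at Lrp6 (-0.78 and -0.84), whose RNA was not called, at the Wnt7b peak with the most reads (-0.60 and -0.67), and at Fzd4 (-0.61 and -0.86), whose peak is shared with Tmem135. The Wnt3 peak was at 4.68, 3.49 and 1.01 CPM in TKO (edgeR adjusted p = 0.0858 and 0.0457). It held 0.826 to 1.76 CPM in the knockout and 1.05 to 1.23 CPM in the NFIB mutant. Mutant libraries thus overlapped TKO there, most of them lying above TKO replicate 3. Wnt7b RNA changed by 5.26 and 6.01 and was not called.

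Expression and the start-site peak with the most reads were set side by side over the 39 tested genes. Of the 9 genes called higher in the CARM1 knockout 4 had a peak called higher and 5 a peak not called, and of the 4 called lower 3 had a peak called lower. In the NFIB mutant 5 of 8 genes called higher had a higher peak, and all 7 called lower had a lower peak. Among genes without an expression call, 3 had a peak called higher and 8 a peak called lower in the knockout. In the NFIB mutant these were 2 and 7. With this choice of peak, no gene had expression and peak called in opposite directions. At the middle Wnt5b start, however, the peak was called higher in the NFIB mutant (2.28), where Wnt5b expression was called lower (-2.75). Across these 39 genes, which share libraries and are not replicates, Pearson's r between the log2 fold changes was 0.72 in the knockout and 0.74 in the NFIB mutant, and over all 13944 genes with both values it was 0.73 and 0.78. Expression and peak thus went together no more closely in the listed genes than over all genes.

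**Figure D4:**
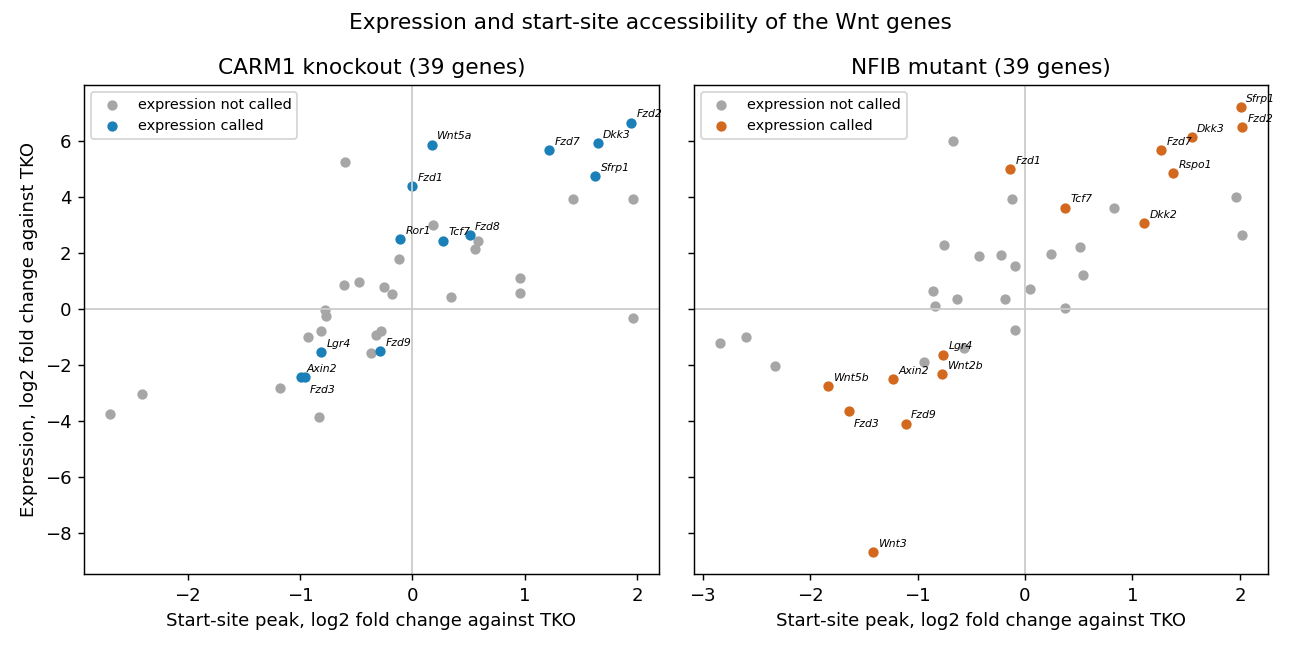
Log2 fold change against TKO of expression (vertical axis) and of the start-site peak with the most reads (horizontal axis) for the 39 tested Wnt genes, in the CARM1 knockout (left) and the NFIB mutant (right), with genes called for expression in color and named. Fzd2, Fzd7, Dkk3 and Sfrp1 lie at the upper right and Fzd3, Axin2 and Lgr4 at the lower left, while Fzd1 lies high at a peak change near 0.

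The rest of the pathway was read from 60 further genes, of which 58 were matched and 51 tested. In the CARM1 knockout 8 were called higher and 7 lower, and in the NFIB mutant 11 and 10, with 8 higher and 5 lower in both. Of all genes 38.8% and 45.8% were called, and 17.9% were higher and 15.4% lower in both, so the further genes were not called more often than the whole table. Among those called higher in both mutants, the largest mean rises were at Wls, Tcf7l2, Rnf43, Nkd2 and Kremen1. Wls, which carries Wnt proteins to the cell surface for release, was at 11.1, 5.50 and 2.08 CPM in TKO, 213, 384 and 195 CPM in the knockout and 282, 167 and 253 CPM in the NFIB mutant, with log2 fold changes of 5.40 and 5.23 (edgeR adjusted p = 0.00148 and 0.00128). The groups were far apart. Tcf7l2, a TCF factor, rose by 4.92 and 5.18 on the log2 scale from a TKO mean of 0.374 CPM, and Rnf43, a ligase that removes Frizzled proteins, by 4.94 and 5.02 from 0.166 CPM, with NFIB mutant replicate 3 still in the TKO range at 0.254 CPM. Nkd2, which binds Dishevelled, rose by 2.58 and 3.42, and Kremen1, a receptor for DKK1, by 2.31 and 3.06.

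The 5 genes called lower in both mutants were Pygo1, Apc2, Vangl2, Csnk1e and Gsk3b. Some genes called in only 1 mutant had larger mean falls than most of these. Among them Celsr3 (log2 fold changes -3.48 and -7.45) and Celsr2 (-3.04 and -4.47) were called lower in the NFIB mutant alone. Pygo1, a nuclear partner of beta-catenin, fell by 4.05 and 4.80 on the log2 scale from 17.6, 6.07 and 60.8 CPM in TKO. Apc2, a relative of the tumor suppressor Apc that is found mainly in neurons, fell by 2.89 and 2.39, and Vangl2, a planar polarity protein, by 1.76 and 2.36. The kinases Csnk1e and Gsk3b fell by 1.11 and 1.17 and by 0.88 and 1.23. Ctnnb1, which encodes beta-catenin, was high in every library at 625 to 1160 CPM and was not called, with log2 fold changes of 0.12 and -0.23.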

How the data were processed

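RNA-seq and ATAC-seq libraries of TKO, CARM1 knockout and NFIB mutant tumor cells were used, 3 per genotype and assay. Table columns marked C, KO and N were read as these genotypes in this order. Per the labels and methods, the authors deposited unnormalized gene counts made with HTSeq after mapping to GRCm38 and unnormalized counts of reads on 1 merged peak set, made with featureCounts 1.6.3 per the file header. The 5 summary entries of the gene table were left out, and reads outside genes made up 12.2, 10 and 11% in TKO and 3.65 to 5.17% in the mutants. No duplicated libraries were found.

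Counts were analysed with edgeR 4.0.16 (TMM, filterByExpr, robust quasi-likelihood test, Benjamini-Hochberg adjustment over all genes or peaks, 1 model of 9 libraries without a block) in R 4.3.3, with DESeq2 1.42.0 as an alternative. Calls were made where the adjusted p lay under 0.1 and the log2 fold change reached 0.8 (genes) or 0.5 (peaks) in size, after the methods of the study. Names, starts and exon lengths came from GENCODE annotation of GRCm38, which holds 45143 of the 46078 genes, and sequences from RefSeq. The p-values measure the spread between 3 animals per genotype, and intervals cover counting error only, since PCR copies are not independent molecules. The fits were tested on simulated data. Figures were drawn with matplotlib 3.10.9 and tables made with pandas 2.3.3.

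The members, the further pathway genes and the marker lists were chosen with earlier results of these data known. Members with the same call in both mutants and a mean of at least 1 CPM in the higher genotype are given in full with the peak of most reads, those called in 1 mutant by means, and of the further pathway genes the 5 largest rises and falls called in both. Ctnnb1, the ligands and receptors described by library, and the additional peaks were named after their values were seen. Promoters were to be those of the 3 largest rises and 3 largest falls at a peak called in both mutants, and genes without an entry, or whose window lay outside the called peak, were passed over, which left 2 rises. As alternatives, other scalings, low-count filters, thresholds and tests were tried, and also a fit of the compared libraries, a replicate block, another peak placement and leaving out each library.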

Additional observations from a re-analysis of the deposited data

How the results depend on the processing

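Directions of expression were kept in all 332 recomputed values of the 10 genes described in full, and 28 of them lost the call, all at Fzd9, Sfrp1 or Axin2. Of 340 values of their start-site peaks 312 kept direction and call, 10 lost and 4 gained a call and 14 changed sign. Sign changes were at peaks with small changes. The Fzd1 peak turned to 0.55, 0.15 and 0.34 in the CARM1 knockout and 0.39, 0.03 and 0.27 in the NFIB mutant with library totals alone, with at least 10 counts in every library and with depth from uniformly expressed genes. With single libraries left out it was -0.19 to 0.25 in the knockout (0.25 without TKO replicate 3, 0.09 without knockout replicate 1 or 3, 0.00 without NFIB mutant replicate 1 or 3), and up to 0.11 in the NFIB mutant, without TKO replicate 3. The Fzd9 peak in the knockout turned to 0.30 with library totals and 0.06 with uniform genes. Relative to the median of all peaks the Fzd1 value in the knockout was -0.21, -0.24 and -0.22 under TMM, totals and uniform genes.

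The stricter threshold (adjusted p under 0.05, absolute log2 fold change of at least 1) left 5 higher and 2 lower genes in the knockout, and 3 lower peaks there and 9 in the NFIB mutant. With at least 10 counts in every library, which tests fewer genes, 2 lower genes were called in the knockout and 5 higher and 3 lower in the NFIB mutant, and 9 lower peaks in the knockout. DESeq2 called 14 higher genes in the NFIB mutant, and between the mutants 2 genes and 1 peak. Library totals gave 2 lower peaks in the knockout and 21 higher and 8 lower in the NFIB mutant, and uniform genes 5, 18 and 8. Against TMM, totals moved the median of all genes by -0.27 and -0.32 and left the gene calls at 8 higher and 5 lower in the knockout. The causes of these shifts were not tested.

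Leaving out each library gave 5 to 11 higher and 2 to 5 lower genes in the knockout and 7 to 12 higher and 6 to 9 lower in the NFIB mutant. For peaks it gave 11 to 16 higher and 8 to 14 lower in the knockout and 9 to 16 and 14 to 17 in the NFIB mutant. The lowest counts came without TKO replicate 2 (5 higher and 2 lower genes in the knockout), without knockout replicate 1 (2 lower genes, 8 lower peaks) and without TKO replicate 1 (9 lower peaks). Between the mutants the range was 0 to 0. Replicate numbers did not pair the samples (correlations of same-numbered libraries from -0.297 to 0.118 in RNA-seq and from -0.142 to 0.118 in ATAC-seq). A replicate block left 9 higher and 2 lower genes in the knockout, ending the calls of Axin2 (adjusted p = 0.125 and 0.123) and of Fzd9 in the knockout (0.120). For the 11 genes with too few counts to be tested, a change under the limit of 3 counts per library was not detectable at this depth.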
